A study of Mus musculus with 11 samples.

Results

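The genes described here are 7 genes for structural proteins of early endoderm and epithelium: Col4a1 and Col4a2, which encode the chains of the common type IV collagen, Lama1, Lamb1 and Lamc1, which encode the 3 chains of laminin 111, and Krt8 and Krt18, the keratin pair of simple epithelia. They were listed by name from 21887 protein-coding genes, and all 7 were found in the gene table. The list was selected on earlier H3K4me3 calls in these same libraries, in which some of the genes had a peak in WT and fewer had one in the knockouts. Occupancy was measured by CUT&RUN, in which a nuclease tethered to an antibody releases the DNA around the antibody's target, and each library was deposited as a list of peaks. The targets were WDR5 (a shared subunit of the enzymes that methylate lysine 4 of histone H3), P53 (a stress-responsive transcription factor) and H3K4me3 (the trimethylated form of that lysine, found at active and poised promoters). The samples were embryoid bodies at day 2, in which mouse embryonic stem cells aggregate and turn towards anterior neural fates under the SFEBq method.

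The groups were wild type (WT), cells without Wdr5 (KO) and cells without both Wdr5 and p53 (DKO), all made in stem cells that carry a GFP reporter knocked into Rx. All groups, WT included, had doxycycline removed at day 0, were grown in medium with 5% KSR and received 2% matrigel at day 1. Matrigel is a basement membrane extract that itself contains laminin 111 and type IV collagen protein. The number of clones per genotype, the deleted parts and the role of doxycycline do not appear in the labels. H3K4me3 had 1 list per genotype, while WDR5 and P53 had 2 lists each in WT and in DKO and no KO list of either was analysed here. No H3K4me3 comparison has a replicate, so differences between genotypes are given as values without a test. In a bulk sample, fewer cells carrying the mark and less of it per cell cannot be told apart.

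Basement membranes are thin sheets of extracellular matrix under epithelia. Laminin trimers of an alpha, a beta and a gamma chain assemble the first layer on the cell surface, and type IV collagen trimers form the network that stabilises it. Parietal and visceral endoderm of the early embryo make large amounts of both. Keratin 8, a type II keratin, pairs with keratin 18, a type I keratin, to form the intermediate filaments of the first embryonic epithelia and of simple epithelia in the adult. H3K4me3 sits on nucleosomes just after the start sites of genes, mostly at CpG-rich promoters.

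The WT, KO and DKO libraries for H3K4me3 held 34.2 M, 22.3 M and 43.2 M fragments (M, mega), and their lists held 9836, 918 and 6418 peaks. The WDR5 and P53 lists rested on 23.9 M to 57.5 M fragments and held 99 to 725 peaks. In 3 of their 4 groups, 75.3% to 80.3% of the summits of list 2 fell on the same base as one of list 1, so the 2 lists were not treated as separate replicates. In the fourth, P53 in DKO, the share was 10.6%. At the targeted genes, H3K4me3 peaks lay at an end of Wdr5 (8.07, 4.66 and 6.85 times the background in WT, KO and DKO) and of Trp53 (3.92, 4.04 and 3.36 times), which does not check the deletions. Of 10 pluripotent cell markers, 8 had a peak at an end in WT, against 4 of 10 anterior neural and eye field markers, 1 of 6 trophoblast markers, 1 of 6 fibroblast markers and 0 of 15 early endoderm markers. In KO and DKO the pluripotent markers had 3 and 8, the neural markers 1 and 1, and the trophoblast, fibroblast and endoderm markers 0 in both. Of the 8 pluripotent markers called in DKO, 7 were also called in WT. Over all protein-coding genes the shares were 35.5% in WT, 3.20% in KO and 22.8% in DKO, so the neural count in WT was near the share over all genes. The part of these cell types in the members' counts was not tested. Rax, the gene of the reporter, is among the 6 neural markers without a peak in WT.

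The promoter sequences are shown first, because the members differ in how CpG-rich their starts are and in how their starts are placed against those of neighbours. They are from RefSeq on GRCm38.p6, the assembly of mm10. Its promoter table, with 250 bases before and 50 after each start, matched 5 of the 7 members; Lama1 and Lamc1 did not match. The stretches below run 5′ to 3′ on each gene's own strand. Capitals mark a TATA box (TATAAA), a GC box (GGGCGG) or a CCAAT box (CCAAT), searched on both strands, so that CCGCCC and ATTGG are boxes on the opposite strand.
Krt8, chr15:102004337-102004462, minus strand, the 120 bases before the start and the first 6 after it: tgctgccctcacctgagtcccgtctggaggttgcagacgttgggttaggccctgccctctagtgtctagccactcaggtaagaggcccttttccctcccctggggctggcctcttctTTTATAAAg
Krt18, chr15:102028096-102028215, plus strand, the 120 bases before the start: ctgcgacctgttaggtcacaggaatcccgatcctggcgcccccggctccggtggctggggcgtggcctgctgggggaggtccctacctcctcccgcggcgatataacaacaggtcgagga
Col4a2, chr8:11312805-11312826, plus strand, the 22 bases from its start to that of Col4a1: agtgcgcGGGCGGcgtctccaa
Col4a1, chr8:11312955-11312981, minus strand, from 155 to 129 bases before its start: cttgcccgggATTGGcgagccaagggg
Lamb1, chr12:31265201-31265230, plus strand, from 92 to 63 bases before its start: gctgtcctCCGCCCcctCCGCCCccgctct

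In the whole 300-base windows, Krt8 held 6 CpG dinucleotides and Krt18, whose product pairs with that of Krt8, held 17. Lamb1 held 18, Col4a2 33 and Col4a1 37. The median was 13 over 17492 protein-coding promoters and 22 over the 6333 whose gene had an H3K4me3 peak in WT. The ratio of observed to expected CpG was 0.24 at Krt8, 0.60 at Krt18, 0.62 at Lamb1, 0.82 at Col4a2 and 0.90 at Col4a1. Of the 5, Krt8 was thus the one with a CpG-poor start, and the one with a TATA box, which overlaps the annotated start. A TATA box was in 13.3% of all promoters and in 5.76% of those whose gene was marked in WT. GC boxes were in the windows of Col4a1, Col4a2 and Lamb1 and in 46.3% of all promoters, and CCAAT boxes were in the same 3 windows and in 39.0% of all. A match is a description of the letters only.

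The mark was read against this sequence measure over all genes, as a description. Of 516 promoters with 6 CpGs, as at Krt8, 11.4% belonged to a gene marked in WT, and Krt8 was among them. Of 413 promoters with 18 CpGs, as at Lamb1, 56.9% did, and Lamb1 was not among them. At the counts of Krt18, Col4a2 and Col4a1 the shares were 58.4%, 67.9% and 62.7%, and all 3 genes were marked. The windows of Col4a2 and Col4a1 overlap, and both genes were marked by the same peak, which lies outside both windows. The plot of CpG count against the mark shows the share of promoters whose gene was marked at either end. It lies between 61.3% and 64.3% in the 4 bins from 18 CpGs upwards.

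**Figure D1:**
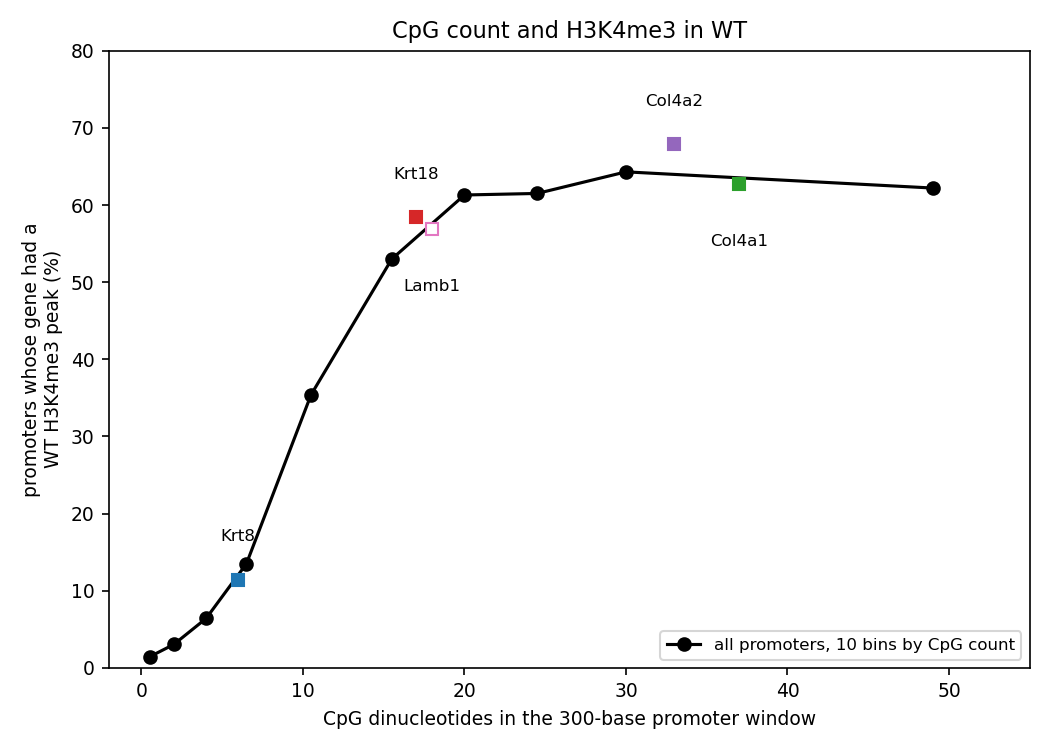
Share of promoters whose gene had an H3K4me3 peak at an end in WT (y, percent) against the CpG count of the 300-base window (x). Black points are 10 equal bins of 17492 promoters at the middle of their CpG range, and squares are members, placed at the share over all promoters with the same count (filled: marked in WT, open: not marked). Krt8 sits at 11.4% and the other 4 members between 56.9% and 67.9%, Lamb1 alone being open. Col4a1 and Col4a2 are filled through the same peak.

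The arrangement of the genes differed between the families. Col4a1 (chromosome 8, 11198423 to 11312889) and Col4a2 (11312805 to 11449287) lie on opposite strands and their spans overlap by 85 bases at their starts, so they share a promoter. The stretch from one start of the promoter table to the other holds 22 bases, a GC box among them. Krt8 (chromosome 15, 101996711 to 102004342) and Krt18 (102028216 to 102032026) also point away from each other, but their starts are 23874 bases apart, so they have separate promoters. The other end of Krt8 lies 87 bases from the start of Krt78, a further keratin gene on the same strand, and no H3K4me3 list had a peak within 1000 bases of that end. Lamb1 (chromosome 12, 31265146 to 31329644) lies 54 bases from Gm32899, a long noncoding RNA gene on the opposite strand, so these 2 also start side by side, and no H3K4me3 list had a peak within 1000 bases of that end. Lama1 (chromosome 17, 67697127 to 67822645) and Lamc1 (chromosome 1, 153218922 to 153332786) had no gene end within 5000 bases of theirs.

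In WT, H3K4me3 lay within 1000 bases of an end of 5 of the 7 genes, which rested on 4 peaks because Col4a1 and Col4a2 share 1. Of all protein-coding genes, 35.5% had such a peak. In KO the count was 0 of 7, against 3.20% of all genes, and in DKO it was 2 of 7, against 22.8%. The members were listed with these calls known, so the counts are a description. The strength of each peak is given as fold enrichment, the authors' ratio of the pileup (fragments over the summit) to the background that the caller set for it. Values of separate lists are not scaled to each other.

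Lamc1, the gamma chain found in most laminins, had the highest value of the 7. Its WT peak (chromosome 1, 153331760 to 153332488, 729 bases wide) had a pileup of 40 fragments and a fold enrichment of 6.15, above 87.3% of the marked genes. KO had no peak there. DKO had 2 narrower peaks, of 427 and 240 bases, 286 bases apart, with fold enrichments of 3.56 and 3.36 and pileups of 21 and 20. The mark was therefore called in WT and DKO. The pileup was lower in the DKO library, which held more fragments. Pileups are not scaled between libraries, and the reason for the lower value was not tested. The weaker DKO peak lay wholly within the WT peak with its summit 48 bases from the WT summit. The other one had 276 of its 427 bases outside the WT peak, farther into the gene. Of the 7568 WT peaks at gene ends, 2.35% met 2 or more DKO peaks.

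Krt18 was the other gene called in both. Its WT peak (chromosome 15, 102028201 to 102028577) covered the start with a pileup of 25 and a fold enrichment of 5.16, above 64.8% of marked genes. In DKO the peak (102028246 to 102028577) ended on the same base, with a pileup of 18 and a fold enrichment of 3.33, above 8.84% of the genes marked there. KO had none, and the nearest KO peak was 41.9 kb away. The DKO peak lay wholly within the WT peak, and the summits were 61 bases apart.

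Krt8 was called in WT only. Its peak (chromosome 15, 102004067 to 102004304) was the narrowest of the 4, at 238 bases, narrower than 95.5% of the list, with a pileup of 20 and a fold enrichment of 3.93. In DKO the nearest peak to Krt8 was that of Krt18, 23.9 kb away, and in KO the nearest was 69.6 kb away. The pair of partner keratins thus differed in the DKO list, where Krt18 was called and Krt8 was not. As the peak of Krt18 was also the higher of the 2 in WT, and weak peaks were called less often in DKO at all genes, no difference in response between them can be read from this.

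The shared promoter of Col4a1 and Col4a2 had the weakest mark of the called members. The peak (chromosome 8, 11313143 to 11313817, 675 bases wide) lay inside Col4a2, 338 bases from its first base and 254 bases outside Col4a1. Its pileup of 21 was close to that at Krt8, but its fold enrichment was 3.05, lower than 97.3% of the list. The ratio of pileup to fold enrichment, which rises with the background set by the caller, was 6.89 there against 5.09 at Krt8. For the other WT peaks it was 4.84 at Krt18 and 6.50 at Lamc1, the member with the highest fold enrichment. The WT fold enrichment of Krt18 recurs at other genes, such as Zbtb18 and Rbm45. Its ratio is therefore not read as the background around Krt18. Neither KO nor DKO had a peak at the collagen pair, and the nearest were 108 kb and 47.8 kb from Col4a2. Over the genome, 3541 pairs of protein-coding genes had ends within 1000 bases of each other, and 1242 (35.1%) shared a WT peak. Of these, 68.8% also shared a DKO peak and 10.5% a KO peak. These shares cover pairs of any orientation and WT peaks of any strength. In the lowest of 10 bins of WT fold enrichment, which holds the collagen pair, 29.5% of genes were called in DKO.

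Lama1, the alpha chain of laminin 111, and Lamb1, its beta chain, had no H3K4me3 peak within 5000 bases of an end, or inside the gene, in any of the 3 lists. The nearest WT peak was 181 kb from Lama1. At Lamb1 it was 21.1 kb away, at an end of Dld, a mitochondrial dehydrogenase subunit gene whose peak (fold enrichment 4.40) was looked up after the values were seen. Of the 3 chains of laminin 111, only the gamma chain gene was therefore called. A list without a peak does not show that the mark is absent: the lowest pileup called was 15 fragments in WT, 14 in KO and 16 in DKO.

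**Figure D2:**
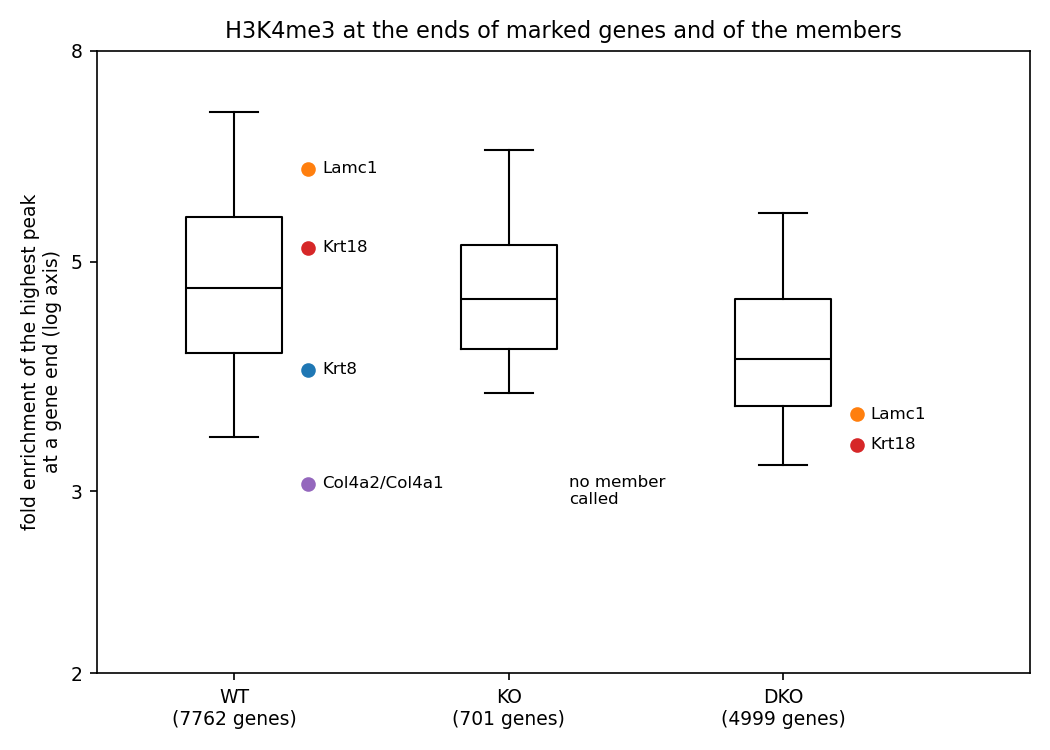
Fold enrichment of the highest H3K4me3 peak within 1000 bases of a gene end (y, log axis) in the WT, KO and DKO lists (x). Boxes show the quartiles and whiskers the 5th to 95th percentile over all marked genes of the list, and dots are members. Lamc1 at 6.15 and Krt18 at 5.16 lie above the WT median of 4.72, Krt8 at 3.93 and Col4a1 with Col4a2 at 3.05 below it, and the 2 members called in DKO lie below the DKO median of 4.03.

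The order in WT was Lamc1, Krt18, Krt8, then the collagen pair, and the spread between replicates of this order is unknown. Nearness to an end was part of the choice of genes, but the side of that end on which the summit lay was not. Measured from the marked end of the span, the WT summit lay inside the gene by 129 bases at Krt18, 149 at Krt8, 362 at Col4a2 and 476 at Lamc1. Lamc1 has no start in the promoter table, so its value rests on the span alone. For the genes with an annotated start within 2000 bases of the WT summit, 77.7% of 5951 summits lay downstream, at a median of 294 bases. The collagen summit was downstream for Col4a2 and 341 bases upstream for Col4a1. All peaks lay at 1 end of the gene, and the opposite ends, including the 3′ ends of the keratin genes, had none. The member peak farthest from an end and still within the 1000 bases was the stronger DKO peak of Lamc1, at 876 bases, and the nearest H3K4me3 peak beyond was 21.1 kb from Lamb1.

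**Figure D3:**
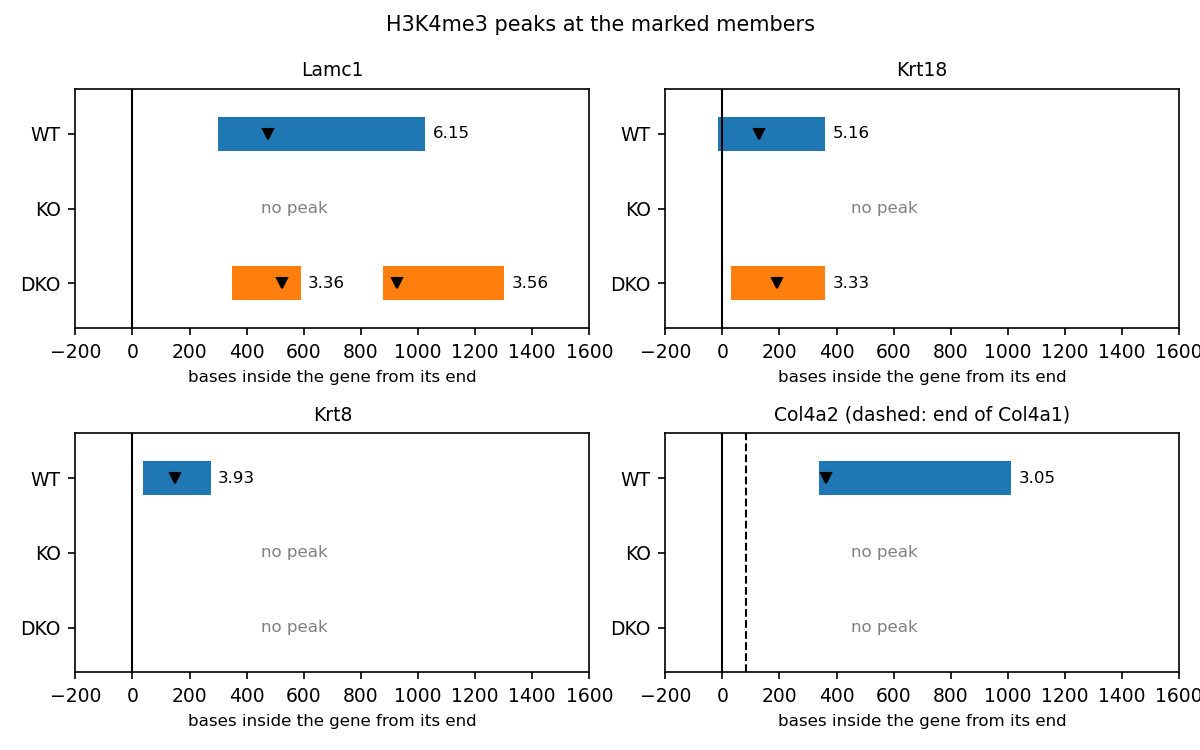
Position of each H3K4me3 peak (bars) and its summit (triangles) in bases from the marked end of the gene towards its inside (x), in WT, KO and DKO (y), with the fold enrichment beside each bar. The vertical line is the end of the gene span and, for Col4a2, the dashed line is the end of Col4a1. WT has 1 peak at each locus, KO has none, and DKO has 1 at Krt18 and 2 at Lamc1.

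The members called in DKO, Lamc1 and Krt18, were those with the 2 highest WT values, and over all genes the share called also rose with the WT value. Both DKO calls were weak, with a -log10 q of 4.14 and 3.52 for the peaks of Lamc1 and 3.07 at Krt18, so they end at a limit of 5. In WT it was 16.9 at Lamc1, 9.11 at Krt18, 5.08 at Krt8 and 3.32 at the collagen pair. Among 7762 genes marked in WT, 8.98% were called in KO and 59.8% in DKO, against 0 of 5 and 2 of 5 members. The marked genes were split into 10 bins by WT fold enrichment. In the bin of Col4a1 and Col4a2, the lowest, 29.5% were called in DKO and 1.42% in KO. In the bin of Krt8 the shares were 39.0% and 1.80%, in that of Krt18 67.0% and 10.8%, and in that of Lamc1 78.7% and 14.8%. No call at a member in KO was therefore the usual outcome even for Lamc1, and the KO library was also the shallowest.

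**Figure D4:**
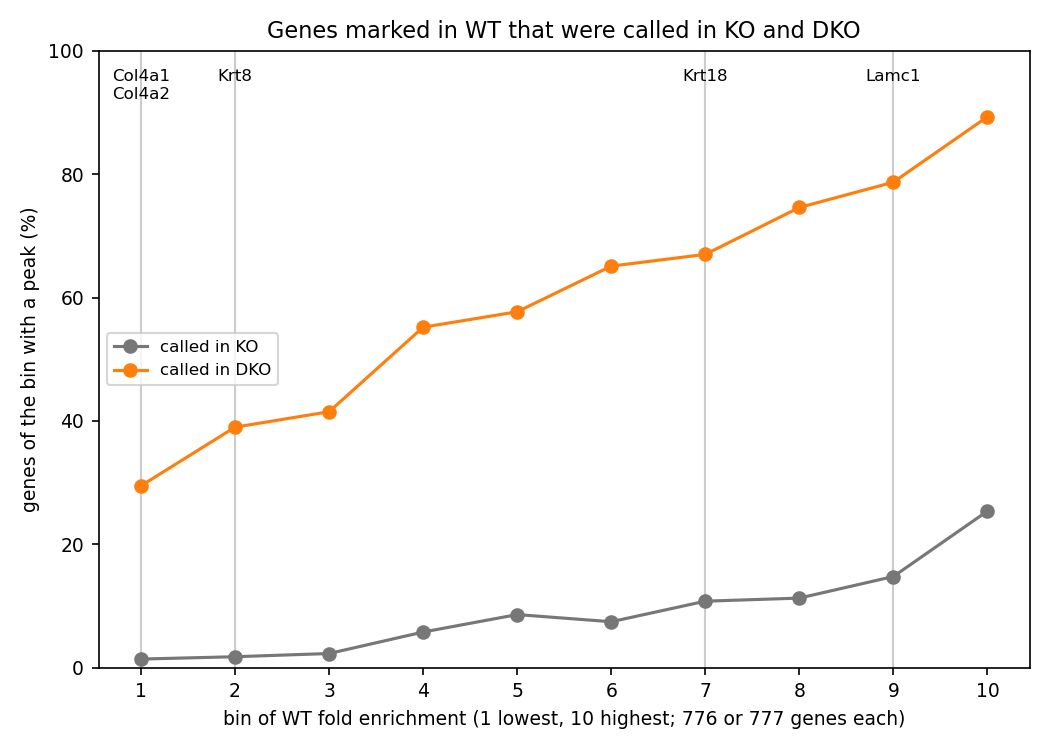
Share of genes with an H3K4me3 peak in KO (grey) and in DKO (orange), in percent (y), in 10 bins of the WT fold enrichment (x). Grey lines mark the bins that hold the 5 members called in WT. The DKO share rises from 29.5% in the bin of the collagen genes to 78.7% in that of Lamc1, and the KO share from 1.42% to 14.8%.

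At the genes called in both WT and DKO, the 2 values can be set side by side but not scaled. The DKO value was below the WT value at 83.5% of these 4638 genes, with a median ratio of 0.815 and quartiles of 0.704 and 0.941. At Krt18 the ratio was 0.645 and at Lamc1 0.579, a lower ratio than at 86.5% and 94.6% of the genes. The list was selected on calls in these same libraries, with fewer in the knockouts, so these ranks are a description only. The median ratio fell along the bins of WT fold enrichment, from 1.11 in the lowest to 0.661 in the highest. It was 0.794 in the bin of Krt18 and 0.723 in that of Lamc1. Part of this fall is built in, since only genes also called in DKO have a ratio and the bins use the WT value it is divided by. A greater loss at strong peaks can therefore not be read from it. The genes nearest to Krt18 over the 3 lists, by the distance between log2 fold enrichments, were Slf1 and 2210408I21Rik. They share a peak and have the same WT and DKO values as Krt18. The same values recur at other genes, 5.16 in WT at Zbtb18, Rbm45 and Them4, and 3.33 in DKO at Pdcl3 and Mrps14. No likeness beyond these repeated values can be read from the tie. For Lamc1 the nearest genes were Lcmt1 (WT 6.17 and DKO 3.57) and Smtnl1 (6.13 and 3.58), at distances of 0.00528 and 0.00861.

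No WDR5 or P53 peak lay within 5000 bases of the span of any of the 7 genes, in any of the 8 lists. Such a peak of WDR5 in any list was near 4.10% of all protein-coding genes and near 8.39% of those marked in WT, and one of P53 near 1.06% and 1.10%, so 0 of 7 is the usual outcome. None lay within 50000 bases either. The nearest WDR5 peak was 106 kb from Col4a2, in WT list 2, at an end of Ing1 with a fold enrichment of 4.58. A peak at the same place was in WT list 1 (4.72) and in DKO list 1 (4.28), in cells labelled as lacking WDR5. In DKO list 2 the nearest was 8260 kb from Col4a2. For Krt18 the nearest WDR5 peak was 215 kb away and for Krt8 242 kb. Both distances are to 1 peak of a DKO list, while the nearest WT peak was 367 kb from Krt18. For Lama1, Lamb1 and Lamc1 the distances were 1260, 6570 and 8540 kb. The nearest P53 peak was 175 kb from Lamc1, in WT list 1 at 13.7-fold, followed by 195 kb for Col4a2, 331 kb for Col4a1, 374 kb for Krt18 and 401 kb for Krt8. Lama1 and Lamb1 were 1600 and 2470 kb from one.

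Genes that act with the members or belong to related families were counted from 6 lists with 84 genes, none of them members. Together 32 were called in WT, 3 in KO and 20 in DKO, where the shares over all protein-coding genes were 35.5%, 3.20% and 22.8%. Of the 32, 19 (59.4%) were called in both WT and DKO, close to the 59.8% over all marked genes. The other type IV collagen and laminin genes had 3 of 12 in WT. Among them were Lama5, the alpha chain of most adult epithelial basement membranes, and Lamb2. Lama5 stood at 5.43 in WT, 4.35 in KO and 3.59 in DKO, and it was the one laminin gene called in all 3 lists. Lamb2 (4.07) was called in WT only, and Col4a3 to Col4a6 and Lama2 to Lama4 in none.

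Of 18 other basement membrane genes, 3 were called in WT, 0 in KO and 3 in DKO. Nid2, which encodes the laminin-binding protein nidogen 2, had 5.44 in WT and 4.07 in DKO, and Col18a1, the collagen that endostatin is cut from, was called in both as well, at 4.30 in DKO. Smoc1, a calcium-binding matrix protein gene, had 3.77 in WT only. Agrn, the proteoglycan agrin, was called in DKO only (3.68) and is named after its value was seen. Nid2 had a WDR5 peak 134 bases outside it in WT list 1 (4.10), and Smoc1 had a P53 peak inside it in both WT lists (5.34 and 5.19), 18142 bases from an end in list 1. Neither had one in DKO.

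Of 12 genes for proteins that modify, fold and export collagen, 8 were called in WT, 0 in KO and 6 in DKO. Plod3, a lysyl hydroxylase that also glycosylates collagen, had 6.39 in WT and 4.74 in DKO, and P4hb, the beta subunit of prolyl 4-hydroxylase, 5.95 and 4.51. Ppib, a collagen-folding cyclophilin, had 5.46 and 5.78, and P3h1, prolyl 3-hydroxylase, 4.82 and 3.42. Mia3, an export factor for bulky cargo, had 4.89 and was called in WT only, as was Plod1.

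Of 16 receptor and adhesion genes, 10 were called in WT, 0 in KO and 6 in DKO. Itgb1, the beta chain shared by most laminin and collagen integrins, had 5.08 in WT and 4.27 in DKO. The linker genes Lims1 (5.59 and 4.81), Tln1 (5.46 and 3.12) and Vcl (5.05 and 4.39) were called in both as well. Itga6, a laminin receptor chain, had 4.41 and Bcam, a receptor for laminin alpha 5, 4.74, both in WT only.

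No other keratin gene of 12 was called in any list, among them Krt7 and Krt19, which are also keratins of simple epithelia. Of 14 linker and other intermediate filament genes, 8 were called in WT, 2 in KO and 4 in DKO. The 2 in KO were the B-type lamin genes Lmnb1 (WT 5.61, KO 4.40, DKO 5.37) and Lmnb2 (8.33, 6.40 and 6.86), which encode filaments of the nucleus and not of the cytoplasm. Of the desmosome genes, Jup had 5.40 and Dsp 3.81 in WT only, Pkp2 3.80 in WT and 4.23 in DKO, and Dsg2 4.14 and 3.33. Jup had a WDR5 peak 22 bases outside it in WT list 1 (6.21). Lmnb2 had one in both WT lists (4.60 and 4.24) and in both DKO lists (5.20 and 4.95), where WDR5 is labelled as deleted.

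Markers of the tissues that make these proteins were set beside the members. None of the 15 early endoderm markers, such as Gata4, Gata6, Sox17 and Foxa2, was called in any list. Of 10 simple epithelium markers, 7 were called in WT, 1 in KO and 3 in DKO. The shares over all protein-coding genes were 35.5%, 3.20% and 22.8%. Cdh1, which encodes E-cadherin, had 5.51, 3.90 and 4.08, while Cldn4 (4.63 and 3.80) and Ocln (4.24 and 3.16), both of tight junctions, were called in WT and DKO. Esrp1 (3.73), Epcam (3.60) and Cldn7 (3.55) were called in WT only. Pluripotent cells express Cdh1 and Epcam too. The part of different cell types in the mark at the members was not tested.

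**Figure D5:**
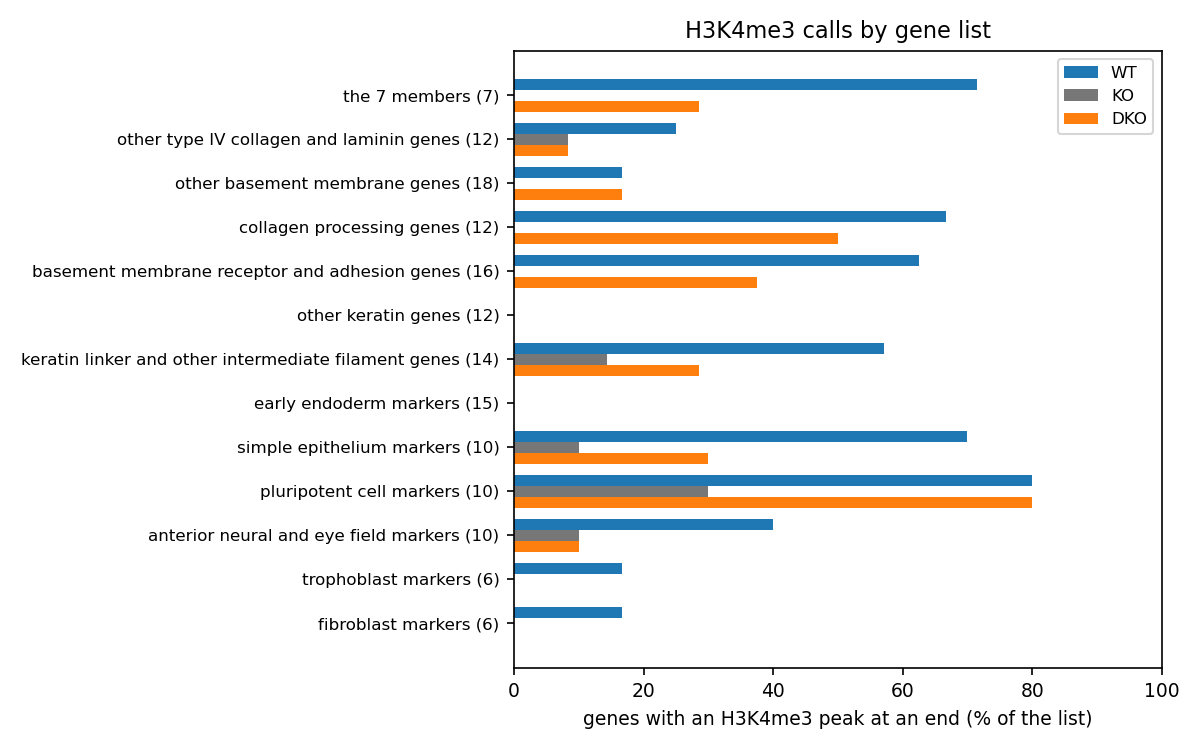
Share of genes with an H3K4me3 peak within 1000 bases of an end (x, percent of the list) in WT, KO and DKO, for the 7 members and the gene lists, with the number of genes in brackets (y). The members had 5 of 7 in WT and 2 in DKO, and other keratin genes and early endoderm markers had none in any list.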

How the data were processed

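Per the file headers, the authors called peaks on each alignment of paired-end reads with MACS (2.1.2 for some lists and 2.1.0.20150731 for the others). No control was given to the caller, the q-value limit was 0.01, the regional background spanned 10 kb, and 2 duplicates were kept at most. The submitters' processing notes also name Bowtie2, SAMtools 1.5, bedtools, HOMER 4.10 and build mm10. The deposited pileup is a coverage signal in fragments, without scaling for depth. The deposited -log10 p and q values and the fold enrichment, a ratio to the background set by the caller, belong to each peak. Ranks and limits were applied within a list. Values were also set side by side between lists, unscaled, as in the ratios of DKO to WT and the genes nearest in pattern. The lists numbered 2 came from merged alignments, per the file headers.

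The 35 mitochondrial peaks were left out. Spans of genes were read from RefSeq (GRCm38.p6), and a gene counted as called where a peak lay within 1000 bases of an end of its span (H3K4me3) or within 5000 bases of the span (WDR5, P53). Overlaps were computed in Python 3.11.15 with pandas 2.3.3 and tested on simulated data. Peak presence in 1 list per genotype allows no test. Genes were named by these rules: all members, genes sharing an end, per list up to 6 with the highest WT values and each with a KO, WDR5 or P53 peak, and 2 nearest in pattern. A gene that these rules name is not reported here. The members and lists were chosen with earlier results of these data known. Alternatives changed the window, the peaks kept, the use of the summit or start, and the list left out.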

Additional observations from a re-analysis of the deposited data

How the results depend on the processing

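The counts of members with an H3K4me3 peak (5 in WT, 0 in KO, 2 in DKO) were the same with windows of 500, 2000 and 5000 bases and with the summit alone. With only the higher 50% of peaks (by fold enrichment) the count was 2 in WT and 0 in DKO, and with a -log10 q of at least 5 it was 3 in WT and 0 in DKO; Lamc1 and Krt18 were called in WT under both. With lists of equal length (918 peaks) it was 0 in WT and 0 in DKO, and Lamc1 ranked 975 of 9836 in WT. With the annotated start alone, which 5 members have, it was 4 in WT and 1 in DKO, since Lamc1 drops out. The KO count stayed at 0 in every alternative run for it. The counts for WDR5 and P53 stayed at 0 in every alternative run for them, which included windows of up to 50000 bases and, leaving out list 1 or list 2 of each group, a range of 0 to 0. The KO list came from 22.3 M fragments, the fewest of the 3 H3K4me3 lists; no alternative matched depth, and its part in the counts was not tested. No H3K4me3 list could be left out, as each genotype has 1. No paired analysis was possible because the presence of a peak in a list comes from no test over samples.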
